A study of Mus musculus with 6 samples.

Results

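Carbonic anhydrases are zinc enzymes that turn CO2 and water into bicarbonate and a proton, and back. They sit in the cytosol, in mitochondria or on the outer face of the plasma membrane, where they feed or drain the transporters that move bicarbonate and protons. The family was followed in stria vascularis, the cochlear tissue that pumps K+ into endolymph, of mice that lack pendrin, an anion exchanger encoded by Slc26a4 that can carry bicarbonate. Members were all probe sets whose gene symbol in the platform annotation was Car1, Car2, Car3, Car4, Car5b, Car8, Car9, Car12, Car13 or Car14. These were 21 of the 45037 probe sets tested, and all 10 genes had at least 1.

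RNA came from stria vascularis microdissected from adult mice, the Slc26a4-/- mice lacking the pendrin gene's function and the Slc26a4+/+ mice carrying it intact, both of the 129S6 strain named in the study's title. There were 3 Slc26a4-/- and 3 Slc26a4+/+ arrays (Affymetrix mouse gene chips), each with RNA pooled from a pair of animals and amplified in successive rounds. The knockout is not restricted to the ear, the mice were not perfused, and the strip of tissue holds marginal, intermediate and basal cells with capillaries, so that fewer cells of a type and less RNA per cell cannot be told apart. Values are signals, the linear intensities summarised per probe set and already scaled per array, and signals of different probe sets are not comparable as amounts of RNA.

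The 95th percentile of 44 probe sets of olfactory receptors was taken as the background of an array, which was 187 to 214 on Slc26a4-/- arrays and 199.7 to 319 on Slc26a4+/+ arrays. Gapdh signals at the 3′ end divided by those at the 5′ end, a ratio that rises as RNA is degraded, were 3.34 to 3.80 on Slc26a4-/- arrays, against 2.25, 7.19 and 10.5 on Slc26a4+/+ replicates 1, 2 and 3. Xist, transcribed from the inactive X chromosome, had 5530 to 5863 on Slc26a4-/- arrays and 771 to 3358 on Slc26a4+/+ arrays, and the Y-linked gene Eif2s3y had 3.10 to 3.60 on Slc26a4-/- arrays and 640 to 1541 on Slc26a4+/+ arrays. Sex and genotype therefore cannot be told apart in the values below. Slc26a4 itself had 520, 717 and 618.5 on Slc26a4-/- arrays and 1354, 1262 and 793 on Slc26a4+/+ arrays (adjusted p = 0.119), and the sources used here do not place this probe set inside or outside the deletion, so it checks no label. Of the marker genes measured, all 8 of marginal cells and all 8 of intermediate cells exceeded background in 2 or more arrays of one genotype, and 4 of 5 of basal cells were, Slc16a3 being the exception.

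Among the 21 probe sets, 3 were higher and 1 was lower in Slc26a4-/- at an adjusted p under 0.05 (limma, Benjamini-Hochberg over all probe sets). Over all probe sets 1.73% passed, 1.19% higher and 0.54% lower. The 3 higher ones all belonged to Car3, a cytosolic enzyme of low activity, which rose 2.30- to 2.74-fold on them, and the lower one to Car12, a transmembrane enzyme, which was 1.65-fold lower on it. Counted by genes, each through its brightest probe set, 0 of 10 passed, against 2.68% of the 18193 genes. With the mean log2 signal of all probe sets of a gene, Car3 passed (log2 fold change 1.09, SE 0.12, adjusted p = 0.00170), 1 of 10 against 2.76% of genes (1.92% higher and 0.841% lower). Without adjustment, 8 probe sets were higher and 1 was lower at a p under 0.05 by limma, against 6.15% and 5.77% of all probe sets. The 8 were all probe sets of Car3, 1421308_at and 1439620_at of Car13, 1427482_a_at of Car8 and 1419705_at of Car5b. Probe sets of the same gene are not independent, and that of Car5b was below background on all 6 arrays. The median log2 fold change was 0.32 over the 21 probe sets and -0.064 over all probe sets. The 21 held several probe sets of some genes, and 7 that were below background on every array. By the brightest probe set of each gene, the median was 0.011 over the 10 members and -0.031 over all genes.

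Of the 21 probe sets, 10 were above background on all 6 arrays, those of Car2, Car14, 3 of Car3, 2 of Car12, 2 of Car13 and 1 of Car8. Of these 10, 2 were called higher and 1 lower, against 2.06% and 1.3% of the 14199 probe sets above background on all 6 arrays. Another 4 were above it on some arrays, and 7 on none, namely every probe set of Car1, Car4, Car5b and Car9 and 1 of Car12. A probe set that is below background on every array is given by its signals, and its fitted fold change is not a measured size.

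**Figure D1:**
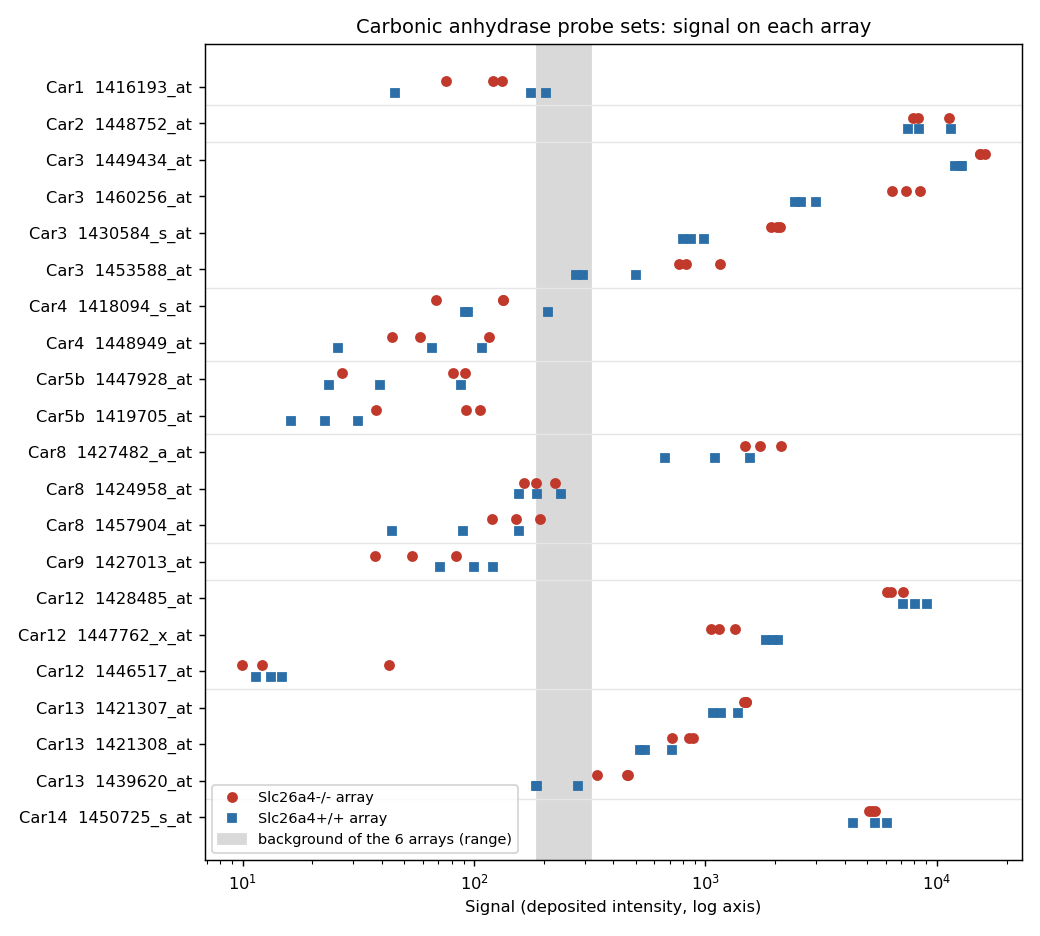
Signal of each of the 21 carbonic anhydrase probe sets (rows) on each array, on a log axis in units of deposited intensity, with Slc26a4-/- arrays as circles above Slc26a4+/+ arrays as squares (3 each) and the range of the array backgrounds, 187 to 319, shaded. The circles lie to the right of the squares on all 4 Car3 and all 3 Car13 probe sets, and the rows of Car1, Car4, Car5b and Car9 lie in or left of the shaded band.

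Car3 is abundant in muscle, fat and liver, and its catalytic rate is low for the family. Its signals on probe set 1460256_at were 7333, 6378 and 8419 on the Slc26a4-/- arrays, against 2589, 2438 and 3018 on the Slc26a4+/+ arrays. Every Slc26a4-/- array was above every Slc26a4+/+ array, and the log2 fold change was 1.46 (SE 0.15, adjusted p = 0.00148, n = 3 arrays each). On 1430584_s_at the signals were 2045, 2104 and 1922 in Slc26a4-/-, against 796, 866 and 987 in Slc26a4+/+ (limma, log2 fold change 1.20, SE 0.14, adjusted p = 0.00291). On 1453588_at they were 1149.8, 772 and 826 in Slc26a4-/-, against 501, 275 and 295 in Slc26a4+/+, where replicate 3 was below background (log2 fold change 1.39, SE 0.26, adjusted p = 0.0289). The groups did not overlap on any of them. The last 2 were annotated to the same expressed sequence tag, and the first shared its RefSeq transcript with the probe set described next, so the 4 are readings of 1 gene and not independent. The suffix s marks probe sets whose probes match more than 1 transcript.

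The fourth and brightest probe set of Car3, 1449434_at, had 16190, 15333 and 15359 in Slc26a4-/-, against 11994, 12758 and 12837 in Slc26a4+/+. The arrays of the genotypes did not overlap here either, but the log2 fold change of 0.32 (95% interval 0.03 to 0.61) did not pass (limma, adjusted p = 0.363). Only 0.0644 to 0.0977% of probe sets were as bright on the Slc26a4-/- arrays, and 0.344 to 0.679% on the Slc26a4+/+ arrays. The highest signal of any probe set was 19131 to 20393 on the Slc26a4-/- arrays and 19243 to 34867 on the Slc26a4+/+ arrays. Whether a limit to what an array can read affected this bright probe set was not tested. The log2 fold changes of the other 3 exceeded it by 1.14, 0.88 and 1.07 (exact permutation test over the arrays, two-sided, p = 0.1 for each, the smallest that 3 against 3 arrays allow). After quantile normalization 1449434_at passed as well (log2 fold change 0.57, adjusted p = 0.0427).

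The calls on 1460256_at and 1430584_s_at held in 15 of 18 alternatives each at an adjusted p under 0.05, including every one that left out an array. Against Slc26a4+/+ replicate 1 alone, the array of the lowest Gapdh ratio, the log2 fold changes were 1.50 and 1.35, given without a test since 1 array has no spread. By limma both calls were lost without the trend of the spread on the signal (adjusted p = 0.0914 and 0.111). They were also lost when Xist was a covariate (adjusted p = 0.178 and 0.294), where the log2 fold changes were 1.61 and 1.19 (SE 0.30 and 0.28). Xist was higher on every Slc26a4-/- array than on every Slc26a4+/+ array, so this setting cannot separate sex from genotype. The methods' t-test, paired by replicate number, gave p-values across all probe sets of 0.000584 and 0.0102 before and 0.400 and 0.459 after Benjamini-Hochberg adjustment. The call on 1453588_at held in 9 of 18. By limma it was lost without any 1 of the Slc26a4-/- arrays and without Slc26a4+/+ replicate 2 or 3 (adjusted p = 0.0694 to 0.158). It was also lost with each array centred on its median (0.106), without the trend (0.222) and with Xist as a covariate (0.274). The methods' t-test gave it 0.428 after Benjamini-Hochberg adjustment.

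Markers of fat and muscle, where Car3 is abundant, were checked, and beside them those of spiral ligament fibrocytes and macrophages. These data do not show whether fibrocytes or macrophages carry Car3. All 5 adipocyte genes measured besides Car3 failed the test, 4 of them, Adipoq, Cidec, Fabp4 and Lep, were below background on all 6 arrays, and their summed signal was 427 to 544 in Slc26a4-/- and 287 to 855 in Slc26a4+/+. Of 12 skeletal muscle genes 0 passed by limma and 1 had an unadjusted p under 0.05, 11 were below background on every array, and their summed signal was 487 to 671 in Slc26a4-/- and 569 to 1165 in Slc26a4+/+. A part of the fibrocyte markers and most macrophage markers were higher on the Slc26a4-/- arrays. Of 10 genes of spiral ligament fibrocytes, the connective tissue cells next to stria vascularis, 4 rose and 0 fell (Otos, Dcn, Ucma and Chad), the other 6 did not pass, and the median log2 fold change was 0.24, with a summed signal of 17210 to 18453 in Slc26a4-/- and 10591 to 14931 in Slc26a4+/+. Otos had 2583, 2770 and 1751 in Slc26a4-/-, against 518, 804 and 585 in Slc26a4+/+ (limma, log2 fold change 1.89, adjusted p = 0.00276). Of 11 macrophage genes 7 rose and 0 fell, with summed signals of 28307 to 30125 in Slc26a4-/- and 5371 to 7716 in Slc26a4+/+, and Cd163 was below background throughout. The part of either cell type in the Car3 signals was not tested.

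**Figure D2:**
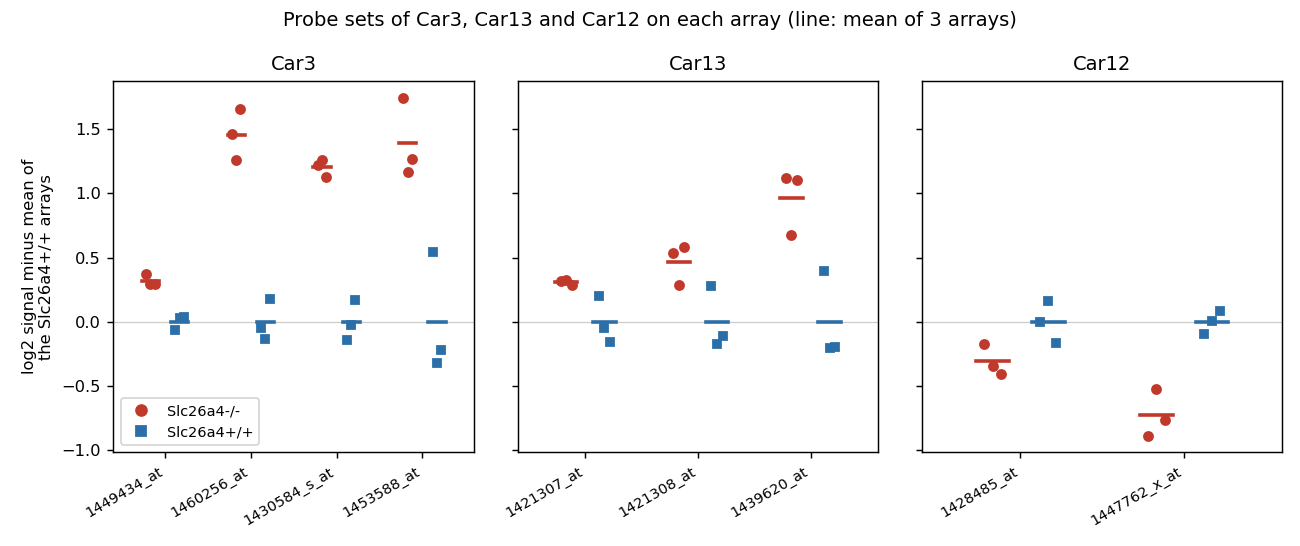
Log2 signal of each array minus the mean of the 3 Slc26a4+/+ arrays (y axis) for the probe sets of Car3, Car13 and Car12 that were above background on at least 1 array (x axis), with Slc26a4-/- arrays as circles to the left, Slc26a4+/+ arrays as squares to the right and lines at the means of 3 arrays. The 3 dimmer Car3 probe sets stand between 1.20 and 1.46 above the Slc26a4+/+ mean and the brightest one at 0.32, and both Car12 probe sets lie below 0.

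Car13, a cytosolic enzyme found in many tissues, had higher signals in Slc26a4-/- on all 3 of its probe sets, but none passed. On 1421307_at it had 1492.5, 1502 and 1462 in Slc26a4-/-, against 1376, 1162 and 1077.5 in Slc26a4+/+ (limma, log2 fold change 0.31, SE 0.14, adjusted p = 0.450). On 1421308_at it had 852, 719 and 883 in Slc26a4-/-, against 717, 523 and 546 in Slc26a4+/+ (0.47, SE 0.18, adjusted p = 0.337). On 1439620_at it had 462, 341 and 457 in Slc26a4-/-, against 281, 186 and 186 in Slc26a4+/+, where replicates 2 and 3 were below background (0.96, SE 0.25, adjusted p = 0.116). The arrays of the genotypes did not overlap on any of the 3. Such a separation upward was found for 8 of the 21 probe sets and for 8.46% of all probe sets. The 8 were all probe sets of Car3 and of Car13 with 1419705_at of Car5b, which was below background on every array. Within Slc26a4+/+, replicate 1, with the lowest Gapdh ratio, had the highest Car13 signal on all 3. Against that array alone the log2 fold changes were 0.11, 0.18 and 0.57, values with no test, and without it they were 0.41, 0.61 and 1.16, of which the last passed (adjusted p = 0.0342). With array weights, 1421308_at and 1439620_at passed (adjusted p = 0.0276 and 0.00780).

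Car2, the fast cytosolic enzyme that stria vascularis is known to contain, did not separate the genotypes. It had 11292, 7899 and 8310 in Slc26a4-/-, against 11513, 8376 and 7527 in Slc26a4+/+. In both genotypes replicate 1 was the bright array. The log2 fold change was 0.01 (limma, adjusted p = 0.991), and its 95% interval of -0.43 to 0.46 still allows a change of 0.740- to 1.37-fold. Against Slc26a4+/+ replicate 1 alone it was -0.35, a value with no test. Osteoclasts also rely on Car2, and 0 of 7 of their genes passed by limma, with 1 at an unadjusted p under 0.05. That gene was Acp5, an acid phosphatase, at 197, 243 and 228 in Slc26a4-/-, against 32.3, 85.2 and 100.3 in Slc26a4+/+ (adjusted p = 0.113).

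Car1, a cytosolic enzyme of red blood cells, was below background on every array, with 121, 75.6 and 132 in Slc26a4-/- and 45.3, 203.5 and 176 in Slc26a4+/+ (adjusted p = 0.956). Blood was not flushed from these mice. Of the 5 erythrocyte genes measured, Hba-a1, Slc4a1, Epb42 and Klf1 were below background on all 6 arrays, and their summed signal with Alas2 was 320 to 562 in Slc26a4-/- and 519.8 to 1291 in Slc26a4+/+. Alas2, the first enzyme of erythroid haem synthesis, had 155, 248 and 125 in Slc26a4-/-, against 271, 390.2 and 669.5 in Slc26a4+/+ (adjusted p = 0.154). Of the 5, 0 passed by limma and 2 had an unadjusted p under 0.05.

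Car13, Car1, Car3 and Car2 follow each other in this order on mouse chromosome 3, with no other protein-coding gene between them in the RefSeq annotation of GRCm38.p6. The chromosomal neighbours thus had log2 fold changes of 0.31 to 0.96 (Car13), 0.32 to 1.46 (Car3) and 0.01 (Car2) over their probe sets, and Car1 no level above background. The flanking genes were not examined.

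Car8 is a relative that has lost a zinc-binding histidine and catalyses nothing. It binds the inositol trisphosphate receptor Itpr1, a Ca2+ release channel. Its one probe set above background on all arrays, 1427482_a_at, had 2127, 1487 and 1724 in Slc26a4-/-, against 1550.1, 1096 and 666 in Slc26a4+/+. The groups overlapped, since Slc26a4+/+ replicate 1 exceeded Slc26a4-/- replicate 2, and the log2 fold change of 0.76 (SE 0.28) did not pass (limma, adjusted p = 0.296). The lowest signal was that of Slc26a4+/+ replicate 3, which had the highest Gapdh ratio. With the log2 Gapdh ratio as a covariate the log2 fold change was 0.45 (adjusted p = 0.335), without Slc26a4+/+ replicate 1 it was 1.04 (adjusted p = 0.0487), and with array weights 0.67 (adjusted p = 0.0385). The probe sets 1424958_at and 1457904_at were above background on 1 array each, a Slc26a4-/- one, with log2 fold changes of -0.01 and 0.83 (adjusted p = 0.994 and 0.571).

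**Figure D3:**
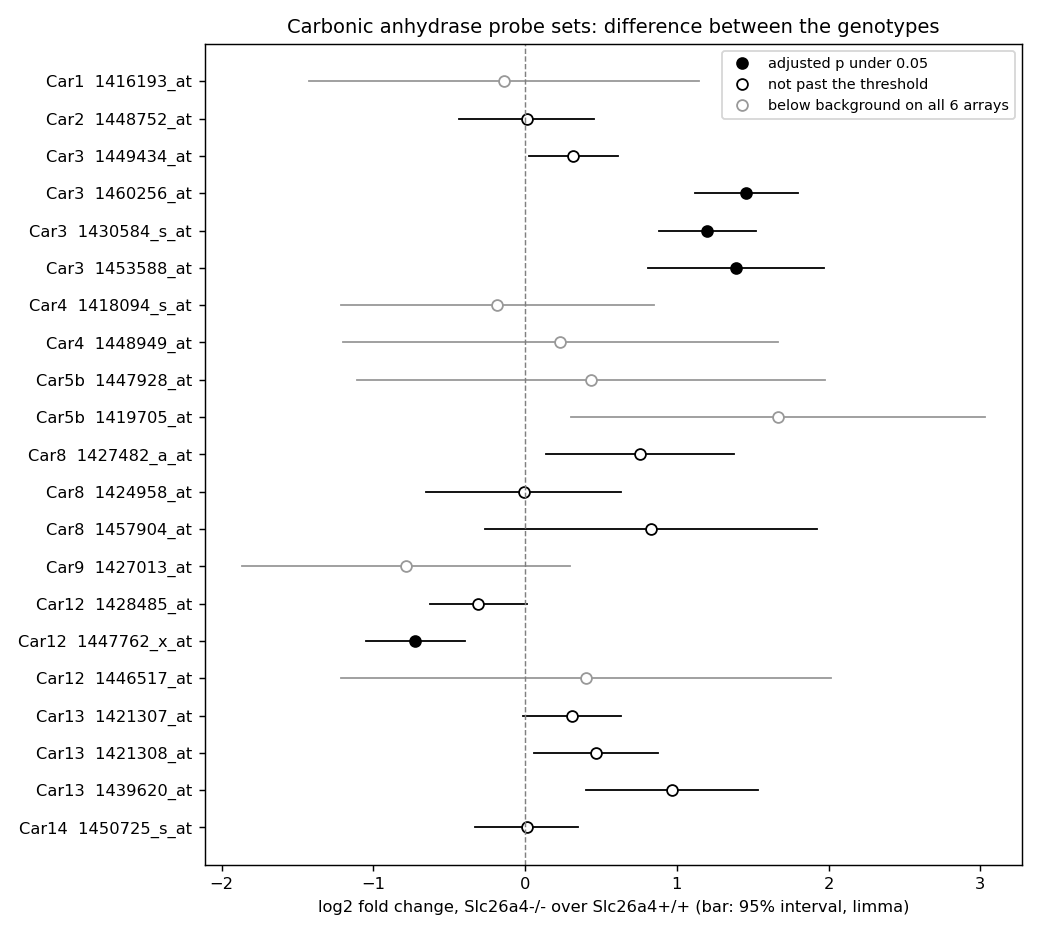
Log2 fold change in Slc26a4-/- over Slc26a4+/+ (x axis) of each of the 21 probe sets (rows) from limma, with bars for the 95% interval, from 3 arrays of each genotype. Filled symbols lie under an adjusted p of 0.05, which only 3 Car3 probe sets (1.20 to 1.46) and 1 Car12 probe set (-0.72) did, and grey symbols were below background on all 6 arrays.

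Car12, Car14 and Car9 are single-pass membrane enzymes whose catalytic domain faces the outside of the cell, and Car12 is known from the basolateral membrane of secretory epithelia. In human tumour cells low oxygen induces CA9 and CA12 through hypoxia-inducible factor, which binds a core of ACGTG. The window from 250 bases before to 50 bases after the start site in RefSeq (GRCm38.p6) is printed for the 3 membrane enzymes because Car12 and Car14 were well above background in stria vascularis and Car9 was not. Capitals mark ACGTG or its reverse complement CACGT. These are Car12 at chr9:66713436-66713735 on the plus strand, Car14 at chr3:95904636-95904935 on the minus strand and Car9 at chr4:43506776-43507075 on the plus strand, each written 5′ to 3′ along its gene.
Car12: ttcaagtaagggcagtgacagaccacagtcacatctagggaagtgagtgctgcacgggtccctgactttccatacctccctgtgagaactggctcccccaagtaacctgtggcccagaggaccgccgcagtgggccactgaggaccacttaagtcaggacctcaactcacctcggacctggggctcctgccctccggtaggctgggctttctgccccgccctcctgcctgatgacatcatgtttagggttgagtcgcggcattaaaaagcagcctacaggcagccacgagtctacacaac
Car14: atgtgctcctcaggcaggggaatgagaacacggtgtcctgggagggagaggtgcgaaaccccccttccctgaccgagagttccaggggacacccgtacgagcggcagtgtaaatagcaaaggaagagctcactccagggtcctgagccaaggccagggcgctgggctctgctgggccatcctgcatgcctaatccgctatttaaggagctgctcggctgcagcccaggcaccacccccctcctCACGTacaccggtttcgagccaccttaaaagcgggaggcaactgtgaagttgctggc
Car9: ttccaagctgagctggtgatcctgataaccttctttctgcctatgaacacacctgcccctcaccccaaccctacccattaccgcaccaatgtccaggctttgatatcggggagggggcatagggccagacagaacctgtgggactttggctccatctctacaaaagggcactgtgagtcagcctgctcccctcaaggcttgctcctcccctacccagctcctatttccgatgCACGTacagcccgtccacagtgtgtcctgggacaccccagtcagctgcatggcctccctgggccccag
Car9 held 1 match, beginning at -18 from the start site, Car14 held 1, at -7, and Car12 held 0. Promoter windows were at hand for 5 members, of which 3 held a match (Car4, Car9 and Car14), against 19.6% of 32851 mouse promoter windows. A match is a run of letters and not a shown binding site.

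Car12 had 7132, 6338 and 6091 on 1428485_at in Slc26a4-/-, against 8069, 9029 and 7172 in Slc26a4+/+. All Slc26a4-/- arrays were below all Slc26a4+/+ arrays, by a margin that did not pass (limma, log2 fold change -0.31, SE 0.14, 95% interval -0.63 to 0.01, adjusted p = 0.444). On 1447762_x_at it had 1051, 1348 and 1144 in Slc26a4-/-, against 1822, 1949 and 2057 in Slc26a4+/+, and fell by 0.72 on the log2 scale (SE 0.15, adjusted p = 0.0414 from limma). The suffix x marks probe sets whose probes can also match other sequences, and no accession stands behind this one in the annotation used. Its log2 fold change lay 0.42 below that of 1428485_at (exact permutation test, two-sided, p = 0.1, the smallest possible here). The call held in 9 of 18 alternatives. It was lost by limma with each array centred on its median (adjusted p = 0.134), without the trend (0.299) and with Xist as a covariate (0.591). Leaving out any 1 of the Slc26a4-/- arrays or Slc26a4+/+ replicate 2 or 3 also lost it (0.0595 to 0.231). So did the methods' t-test after Benjamini-Hochberg adjustment (adjusted p = 0.479). The log2 fold change stayed negative in all 18, between -0.82 and -0.64. The third probe set, 1446517_at, was below background on every array, at 9.90 to 42.9 in Slc26a4-/- and 11.4 to 14.8 in Slc26a4+/+. Groups that did not overlap, lower in Slc26a4-/-, were found for 2 of the 21 probe sets, both of Car12, and for 9.4% of all probe sets. Markers of marginal cells, the secretory layer, were lower on the same arrays, with 2 of 8 falling by limma (Kcne1 and Atp13a5), 0 rising and a summed signal of 39553 to 41543 in Slc26a4-/- and 52897 to 70236 in Slc26a4+/+. Their part in the Car12 signals was not tested.

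Car14 had 1 probe set, 1450725_s_at, whose suffix s marks probes that match more than 1 transcript. Its signals were 5114, 5261.5 and 5430 in Slc26a4-/-, against 5412, 6088.5 and 4329.5 in Slc26a4+/+. The Slc26a4-/- arrays lay within the range of the Slc26a4+/+ arrays. The log2 fold change was 0.01 (limma, adjusted p = 0.987), with a 95% interval from -0.33 to 0.35, which is 0.796- to 1.28-fold. Car9 was below background on every array, with 83.3, 54.0 and 37.2 in Slc26a4-/- and 120.2, 99.8 and 71.3 in Slc26a4+/+ (adjusted p = 0.591). Of 12 other genes of the hypoxia response, 0 passed by limma, 2 had an unadjusted p under 0.05 and 10 exceeded background in 2 or more arrays of one genotype. Bnip3, a mitophagy receptor, had 2342, 2459 and 2069.5 in Slc26a4-/-, against 4248, 4416 and 2597 in Slc26a4+/+ (adjusted p = 0.179). Pdk1, a kinase that holds back pyruvate dehydrogenase, had 2514, 2527 and 2674 in Slc26a4-/-, against 3529, 3312 and 2871 in Slc26a4+/+ (adjusted p = 0.363). Their median log2 fold change was -0.11, against -0.031 over all genes.

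Car4, held on the outer membrane by a lipid anchor, was below background on both of its probe sets, at 44.2 to 134 in Slc26a4-/- and 25.9 to 209 in Slc26a4+/+ (adjusted p = 0.920 and 0.927). Car5b, one of the mitochondrial enzymes, was below background on both of its own as well, at 26.9 to 106 in Slc26a4-/- and 16.1 to 88.0 in Slc26a4+/+ (adjusted p = 0.861 and 0.296). On 1419705_at the Car5b groups did not overlap, but with both below background no fold is given.

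The 6 carbonic anhydrase genes of the mouse outside the 10 members were measured too, and 0 of 6 passed in either direction by limma, with 2 at an unadjusted p under 0.05. Car6, the secreted enzyme of saliva, had 292, 341 and 338 in Slc26a4-/-, against 136, 106 and 187.5 in Slc26a4+/+, below background on every Slc26a4+/+ array. As a bound, the Slc26a4-/- mean was 1.25-fold above the backgrounds of the Slc26a4+/+ arrays. This is a ratio with no interval, and Car6 did not pass (limma, adjusted p = 0.0761). Car11, a catalytically inactive relative, had 505, 513 and 469 in Slc26a4-/-, against 436.5, 235 and 333 in Slc26a4+/+ (adjusted p = 0.347). The brightest probe sets of Car7, Car10 and Car15 overlapped between the genotypes, and Car5a was below background throughout.

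The transporters that work beside these enzymes were looked up by lists. The 13 bicarbonate and related anion transporters measured included Slc26a4 itself, which did not pass. Of the 13, 1 was higher and 0 were lower, with a median log2 fold change of 0.10. The 1 was Slc26a7, an anion exchanger of the pendrin family, with 4256, 4793 and 3055 in Slc26a4-/-, against 139, 299 and 142 in Slc26a4+/+, where only replicate 2 was above background (fitted log2 fold change 4.46, adjusted p = 0.000104, its size resting on 2 arrays below background). Slc4a11, a membrane transporter of the bicarbonate family, had 1202, 1331 and 1229 in Slc26a4-/-, against 1779.9, 2024.5 and 1801 in Slc26a4+/+ (adjusted p = 0.0750). The list of sodium-proton exchangers and monocarboxylate transporters also held Slc9a3r1 and Bsg, which are partner proteins and not transporters. Of its 10 measured genes 0 passed by limma, and 3 had an unadjusted p under 0.05. The lowest p was that of Slc9a9, an endosomal exchanger at 374, 387 and 420 in Slc26a4-/-, against 198, 156 and 233 in Slc26a4+/+ (adjusted p = 0.0699), followed by Bsg, the chaperone of monocarboxylate transporters (adjusted p = 0.230). Of 19 subunits of the proton-pumping V-ATPase 0 passed by limma, 4 had an unadjusted p under 0.05 and the median log2 fold change was 0.06. Its lowest p-values were those of Atp6v0d2, at 260, 425 and 338.5 in Slc26a4-/-, against 75.4, 135 and 174 in Slc26a4+/+ (adjusted p = 0.0885), and of Atp6v0a1 (adjusted p = 0.130). Over all genes, 1.88% were higher and 0.803% lower.

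**Figure D4:**
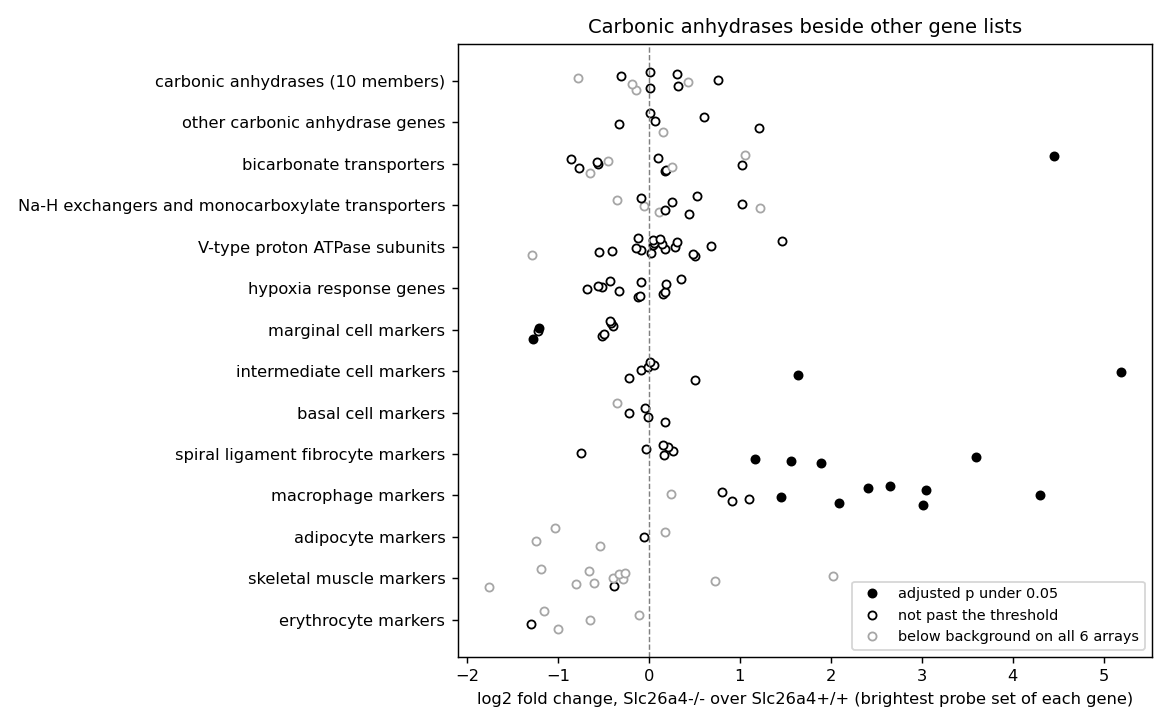
Log2 fold change in Slc26a4-/- over Slc26a4+/+ (x axis) of the brightest probe set of each gene, 1 point per gene, for the 10 carbonic anhydrase members and for 13 other lists (rows). Filled points passed an adjusted p of 0.05 and grey points were below background on all 6 arrays; none of the 10 members is filled, while Slc26a7 lies at a fitted 4.46 among the bicarbonate transporters.

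The genes whose log2 signals followed 1460256_at of Car3 most closely over the 6 arrays, out of 9091 genes with a mean signal of at least 300, were Clcn3, Scpep1 and Chst5 (Pearson r of 0.999, 0.996 and 0.994). Clcn3, a chloride-proton exchanger of endosomes, had 4970.2, 4736 and 5233 in Slc26a4-/-, against 3421.5, 3348 and 3554 in Slc26a4+/+ (log2 fold change 0.53, adjusted p = 0.0721). For 1447762_x_at of Car12 they were Rnf222, Sel1l3 and Cox15 (0.995, 0.994 and 0.993). These are descriptions over 6 arrays that share the split by genotype, picked as the highest of many.

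**Figure D5:**
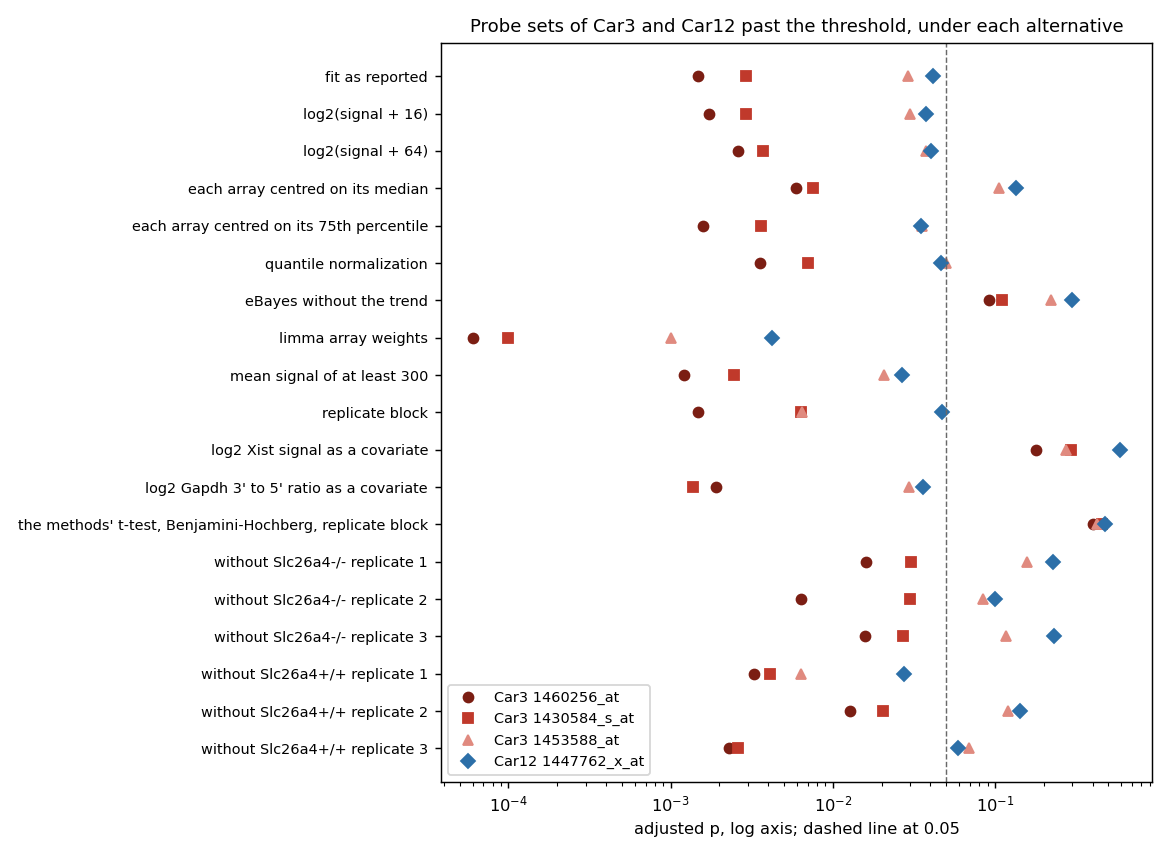
Adjusted p (x axis, log scale) of the 3 Car3 probe sets and the Car12 probe set past the threshold, in the fit as reported and in each of 18 alternatives (rows), with a dashed line at 0.05. The symbols of 1460256_at and 1430584_s_at of Car3 lie left of the line in 15 alternatives each, those of 1453588_at of Car3 and 1447762_x_at of Car12 in 9 each.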

How the data were processed

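RNA of stria vascularis was measured on 6 gene chips, 3 per genotype, grouped and numbered by the sample titles. Each array holds, as deposited, 1 intensity for every probe set, a background-corrected signal scaled per array by GCOS, which the submitters' processing notes name; the sources used here give neither its version nor the scaling target, and detection calls were not used here. Signal on a linear scale, with few arrays, limits the precision of every value.

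The members, lists and tests were chosen with earlier results of these data known. Of 45101 probe sets, 64 Affymetrix controls were left out; 172 signals under 1 were set to 1. Log2 signals were compared with lmFit and trended eBayes of limma 3.58.1 (R 4.3.3), two-sided, with Benjamini-Hochberg adjustment over 45037 probe sets and a threshold of 0.05; the fit was tested on simulated data. Errors are SE of the log2 fold change. Symbols came from the platform annotation (34945 probe sets with 1 symbol, 932 with several, 9160 with none in the table used); the gene numbers of all 21 member probe sets matched the gene table of GRCm38.p6. Every member probe set was reported; from the other lists, genes past the threshold or with the 2 smallest p-values were to be named, and others were chosen after their values were seen. Lists covered family members, transporters, proton pumps, hypoxia and cell type markers, each gene by its probe set of highest mean log2 signal; cartilage and bone genes are given in the closing section. A bound sets the brighter genotype's mean log2 signal against, on each array of the dimmer, the higher of background and own signal.

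Same-numbered arrays of the genotypes deviated together from their genotype means (Pearson r of 0.278, 0.215 and 0.142 over 15711 probe sets, while of the differently numbered pairs Slc26a4-/- 2 with Slc26a4+/+ 3 had 0.120 and the others were below 0), so the replicate number was also fitted as a block; this pairing comes from the titles' numbers and these data, since the sources do not say what a number marks. The study names paired t-tests for its numeric data in general and averaged the arrays without pairing them; that test, paired here by replicate number, was run as an alternative (the methods' t-test). Alternatives changed the pseudocount (16 or 64), the scaling, the trend, array weights, a filter on a mean signal of 300, covariates for Xist and for the Gapdh ratio, and left out each array. Counts of alternatives that kept a call cover the 18 planned ones with an adjusted p. The fit to Slc26a4+/+ replicate 1 alone was chosen after seeing the data; its spread comes from the Slc26a4-/- arrays only. Since nothing in the sources says that pools of a genotype came from separate litters, p-values measure the spread between these pools.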

Additional observations from a re-analysis of the deposited data

How the results depend on the processing

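Of the 21 carbonic anhydrase probe sets, 4 passed the threshold in the fit as reported. The count was 2 with each array centred on its median, 9 with array weights, 0 without the trend, 0 with Xist as a covariate, 8 by the methods' t-test without adjustment and 0 after it, 2 against Slc26a4+/+ replicate 1 alone, a setting chosen after seeing the data in which the lone array is assumed to vary like the Slc26a4-/- arrays and which says nothing of stability, and 2 to 6 with 1 array left out. With median centring the 2 were 1460256_at and 1430584_s_at of Car3. The replicate block left it at 4, the same probe sets, and changed no carbonic anhydrase call. Of all probe sets, 778 passed (68.8% of them higher), against 448 with median centring (80.1% higher), 114 without the trend (81.6%), 4084 with array weights (58.1%), 27 with Xist, 1231 with the Gapdh ratio, 3980 and 0 by the methods' t-test before and after adjustment (44.8% higher before), 1304 against replicate 1 alone, 832 with the replicate block and 219 to 1714 with 1 array left out. Of the genes of the lists, members aside, 17 passed, against 10 without the trend, 40 with array weights, 4 with Xist, 33 and 0 by the methods' t-test, and 20 with the replicate block. Counted by genes, 0 carbonic anhydrases passed by the brightest probe set and 1 by the mean of all. The number of carbonic anhydrase probe sets exceeding background in 2 or more arrays of one genotype was 12, and stayed at 12 with the 90th or the 99th percentile. Why calls were lost with these settings was not tested; leaving out an array leaves fewer to measure the spread.

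Some member probe sets that did not pass as reported changed sign, none past the threshold. They were near 0 or below background, except Car8 1457904_at, at a log2 fold change of 0.83 and above background on 1 array. The values of Car1, Car4, Car5b and Car12 1446517_at are fitted ones of probe sets below background on all 6 arrays and measure no change. Log2 fold changes were 0.070 for Car8 1424958_at with median centring, -0.023 for Car2 and -0.021 for Car14 with the 75th percentile, and 0.049 for Car8 1424958_at with quantile normalization. With array weights they were 0.093 for Car4 1418094_s_at, -0.42 for Car5b 1447928_at, 0.16 for Car8 1424958_at and -0.14 for Car14. With Xist they were 0.17 for Car4 1418094_s_at, -1.20 for Car5b 1447928_at, 0.38 for Car8 1424958_at and -0.28 for Car14. With the Gapdh ratio they were 0.45 for Car1, -0.16 for Car2, 0.058 for Car4 1418094_s_at, 0.045 for Car8 1424958_at and -0.044 for Car14. Against replicate 1 alone they were 1.23 for Car1, -0.35 for Car2, 0.23 for Car4 1418094_s_at, 0.015 and -0.044 for Car8 1424958_at and 1457904_at and -0.039 for Car14. With 1 array left out they ranged from -0.15 to 0.19 for Car2, -0.83 to 0.26 for Car1, -0.39 to 0.21 and -0.34 to 0.69 for Car4, -0.0063 to 0.99 for Car5b 1447928_at, -0.15 to 0.15 for Car8 1424958_at, -0.25 to 0.80 for Car12 1446517_at and -0.12 to 0.12 for Car14.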

Other observations

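Cartilage and bone genes, which the report left aside, held 1 gene of 10 that rose and 0 that fell. This was Cnmd, the cartilage protein chondromodulin, with 13156.5, 12779 and 12834.5 in Slc26a4-/-, against 1806, 1070.0 and 866 in Slc26a4+/+ (limma, log2 fold change 3.44, adjusted p = 0.000116). Of the 10, 6 (Acan, Matn1, Comp, Col10a1, Ibsp and Dmp1) were below background on all arrays, and the median log2 fold change of the 10 was 0.02. Sox9, a transcription factor of cartilage and of otic epithelium, had 1495, 1246 and 1667 in Slc26a4-/-, against 1337, 1147 and 696 in Slc26a4+/+ (adjusted p = 0.439). Among 8 intermediate cell genes Pmel and Tyrp1, both of melanosomes, rose and 0 fell, with a median of 0.03, and among 5 basal cell genes 0 passed by limma, with 0 at an unadjusted p under 0.05 and a median of -0.044.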
